A study of Homo sapiens with 8 samples.

Results

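Triacylglycerol, the neutral fat that cells keep in lipid droplets, is built on glycerol 3-phosphate in the ER and is taken apart again at the droplet surface. Described here are the mRNAs of 10 human genes that carry out or control these steps, namely GPAM, AGPAT2, LPIN1, LPIN2, DGAT1, DGAT2, PLIN2, PLIN3, PNPLA2 and HILPDA. They were chosen by gene symbol, as named enzymes, coat proteins and lipases of this pathway, from a table of 61806 genes, and all 10 were found in it. The cells were N/TERT-1, a line of human epidermal keratinocytes immortalized with telomerase, of wild-type genotype and grown in serum-free keratinocyte medium. Of 8 libraries, 4 came from cells given ethanol, the solvent, and 4 from cells given oligomycin and antimycin A (O/A), which block the mitochondrial ATP synthase and complex III. The sample labels give neither a dose nor a time, and every library comes from this single line. For its sequencing comparison the paper states 4 hours of O/A. The comparison asks whether the mRNAs that make, coat and break down stored fat differed once oxidative phosphorylation was blocked.

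In the glycerol 3-phosphate route, acyltransferases add a first and a second fatty acid to the glycerol backbone, lipins remove the phosphate to leave diacylglycerol, and diacylglycerol acyltransferases add the last fatty acid. The product collects between the leaflets of the ER membrane and buds off as a droplet coated with perilipins. Lipolysis removes the fatty acids in turn, starting with adipose triglyceride lipase. In the epidermis the release of fatty acids from stored triacylglycerol also feeds the lipids of the skin barrier.

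In O/A-treated cells PNPLA2, the gene of adipose triglyceride lipase, rose by 46.3% (95% interval 37.8 to 55.3), while HILPDA, an inhibitor of that lipase, fell by 38.6%. Among the enzymes of synthesis, LPIN1 and LPIN2 rose by 23.6% and 21.2%, and DGAT2 fell by 56.3%. DGAT1 mRNA was not called in either direction, and PLIN2, a droplet coat gene, had almost no reads in either condition. A gene was called when the edgeR quasi-likelihood test gave a Benjamini-Hochberg adjusted p-value of 0.05 or less and its absolute log2 fold change was above 0.25, the study's own threshold. Of the 10 genes, 9 had enough reads to be tested, and 3 were upregulated and 2 downregulated. That is 5 of 9, beside 34.7% of all 14893 genes tested (15.8% upregulated and 18.9% downregulated). On log2(FPKM + 0.1) the split was 2 upregulated and 4 downregulated, with LPIN2 lost and GPAM and PLIN3 gained. On that scale the log2 fold changes of all genes shifted by a median of -0.0451.

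The libraries held 17210404 to 20999927 counted fragments, with a median of 17976302 in ethanol and 18270044 in O/A. Counts varied beyond sampling noise within each condition (chi-square per degree of freedom 1.76 to 5.74 over 11727 genes), so none was a copy of another. The labels call them biological replicates, and p-values measure the spread between them. The keratinocyte markers KRT5, KRT14, KRT6A, TP63, ITGA6 and DSG3 summed to 4114 to 4411 FPKM in ethanol and 3606 to 3767 in O/A. Within this list KRT5 fell from 1433 to 1128 FPKM and DSG3 rose from 52.8 to 101.9 FPKM, and the other 4 were not called. FPKM scales a count to exonic length and library total, and is used here to set levels side by side between genes. Such a comparison depends on the exonic length in the deposited table. The 6 markers of differentiated keratinocytes summed to 21.3 to 23.6 FPKM in ethanol and 22.4 to 24.6 in O/A, with KRT10 upregulated, IVL downregulated, SBSN not called, and KRT1 and LORICRIN without a read in any library. Of 6 adipocyte markers, 5 stayed under 1 FPKM in every library, and the summed level of the list (1.92 to 2.42 FPKM in ethanol, 3.07 to 3.58 in O/A) was nearly all LIPE, a lipase described further on. The fibroblast, melanocyte and macrophage lists summed to at most 2.95, 1.81 and 1.37 FPKM in any library. In bulk RNA, fewer cells of a type and less RNA per cell cannot be told apart.

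Promoter sequences were at hand for 7 of the 10 genes, in 10 windows of RefSeq (GRCh38.p14), each covering 250 bases before a transcript start and 50 from it. Those of the upregulated PNPLA2, LPIN1 and LPIN2 are shown because these 3 transcripts rose together, and those of PLIN2 and PLIN3 because these related coat genes lie at opposite ends of the range of levels. For LPIN1 and LPIN2, which have several windows, the window nearest to the deposited gene start is given. Capitals mark matches, on either strand, to ACGTG or GCGTG (the core bound by hypoxia-inducible factors), CACGTG (the E-box, which contains ACGTG on both strands) or TGATGNA (part of the element bound by ATF4 with C/EBP proteins). A match on the opposite strand reads CACGT or CACGC here. Each window is printed 5′ to 3′ on the strand of the gene.
PNPLA2 (chr11:818664-818963, plus strand): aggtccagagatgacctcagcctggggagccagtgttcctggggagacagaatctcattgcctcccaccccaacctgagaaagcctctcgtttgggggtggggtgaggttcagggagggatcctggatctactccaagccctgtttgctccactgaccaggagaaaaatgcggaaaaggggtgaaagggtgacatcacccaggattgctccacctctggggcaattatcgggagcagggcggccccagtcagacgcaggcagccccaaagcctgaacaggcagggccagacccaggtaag
LPIN1 (chr2:11677294-11677593, plus strand): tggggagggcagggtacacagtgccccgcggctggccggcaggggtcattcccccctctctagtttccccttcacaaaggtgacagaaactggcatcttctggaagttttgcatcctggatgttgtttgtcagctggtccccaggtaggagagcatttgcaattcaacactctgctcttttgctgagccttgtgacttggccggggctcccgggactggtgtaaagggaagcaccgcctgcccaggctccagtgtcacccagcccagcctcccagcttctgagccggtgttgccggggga
LPIN2 (chr18:3013095-3013394, minus strand): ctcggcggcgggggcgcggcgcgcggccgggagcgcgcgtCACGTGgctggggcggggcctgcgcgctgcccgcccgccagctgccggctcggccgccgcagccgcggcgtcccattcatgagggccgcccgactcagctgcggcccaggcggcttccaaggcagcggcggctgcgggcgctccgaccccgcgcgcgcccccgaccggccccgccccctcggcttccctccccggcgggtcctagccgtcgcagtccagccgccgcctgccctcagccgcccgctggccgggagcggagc
PLIN2 (chr9:19127443-19127742, minus strand): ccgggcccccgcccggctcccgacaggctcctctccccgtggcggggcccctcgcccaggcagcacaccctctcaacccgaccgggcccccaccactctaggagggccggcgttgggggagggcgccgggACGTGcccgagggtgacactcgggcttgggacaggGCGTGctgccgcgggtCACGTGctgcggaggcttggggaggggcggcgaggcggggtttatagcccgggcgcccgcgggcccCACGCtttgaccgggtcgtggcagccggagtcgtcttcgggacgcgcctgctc
PLIN3 (chr19:4867618-4867917, minus strand): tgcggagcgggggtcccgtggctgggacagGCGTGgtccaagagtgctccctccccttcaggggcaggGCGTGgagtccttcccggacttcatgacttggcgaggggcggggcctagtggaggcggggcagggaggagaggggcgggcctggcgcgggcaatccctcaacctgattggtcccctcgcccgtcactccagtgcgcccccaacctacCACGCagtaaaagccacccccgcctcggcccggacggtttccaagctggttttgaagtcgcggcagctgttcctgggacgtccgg

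The windows of PNPLA2 and LPIN1 shown held none of the 4 motifs. The other LPIN1 windows, not shown, each held a GCGTG, with its first base at -124 or 22 from their transcript starts. The LPIN2 window shown held 1 CACGTG, with its first base at position -210 from the transcript start. The PLIN2 window held a CACGTG at -69, a further ACGTG at -120 and 2 matches to GCGTG, and that of PLIN3 held 3 matches to GCGTG. Over the 10 windows, CACGTG was found in 2 and TGATGNA in 0, and among 35116 promoters of the same length they were found in 7.26% and 9.99%. ACGTG was found in 2 of the windows and GCGTG in 6, against 21.4% and 36.5% of all promoters. These are matches of letters in a short window and say nothing about binding. The transcript start of the only PLIN2 window lies 21798 bases downstream of the first base that the deposited table gives for the gene.

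The levels of the 10 genes spanned a wide range. Per length, PLIN3 was the highest in ethanol at 41.9 ± 0.550 FPKM (mean ± SD, n = 4 libraries, as for all means given here), followed by LPIN1 at 14.35 ± 0.375, PNPLA2 at 12.1 ± 0.634 and AGPAT2 at 11.2 ± 0.804 FPKM. HILPDA (5.95 ± 0.668 FPKM), DGAT1 (5.65 ± 0.202) and GPAM (4.20 ± 0.170) formed a middle group, and LPIN2 (1.78 ± 0.0726) and DGAT2 (0.343 ± 0.0377) lay below it. The ranges of PNPLA2 and AGPAT2 overlapped in ethanol, as did those of HILPDA and DGAT1, so these neighbours cannot be ordered. Under O/A, PNPLA2 reached 17.2 ± 0.515 FPKM, level with LPIN1 at 17.2 ± 0.638 FPKM, and HILPDA at 3.53 ± 0.251 FPKM lay beside GPAM at 3.46 ± 0.131 FPKM. The plot of FPKM by library shows these levels.

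**Figure D1:**
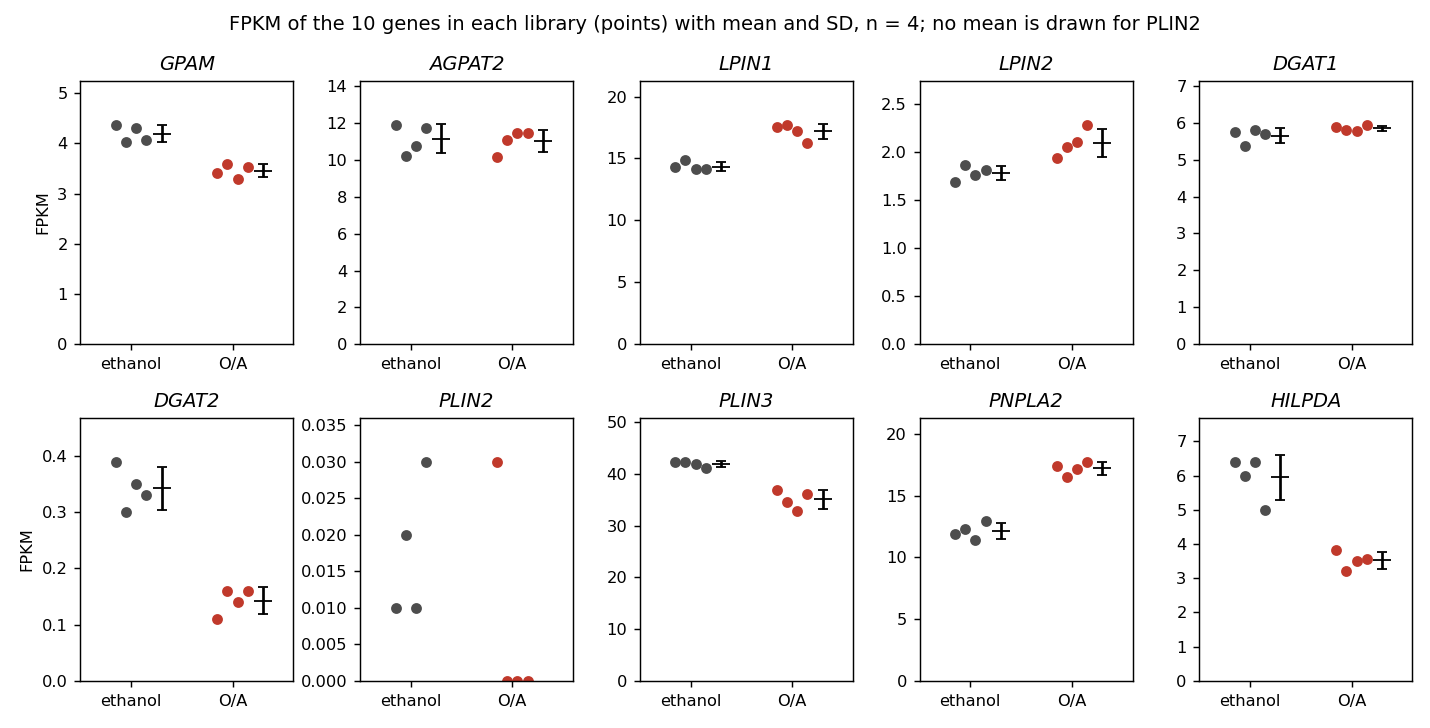
FPKM (vertical axes, each from 0) of the 10 genes in every ethanol (grey) and O/A (red) library, with the mean and SD of 4 libraries beside the points except for PLIN2. PNPLA2 and LPIN1 lie higher in all 4 O/A libraries, DGAT2 and HILPDA lower, AGPAT2 and DGAT1 overlap between conditions, and PLIN2 stays at or under 0.03 FPKM.

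GPAM encodes the acyltransferase of the mitochondrial outer membrane that adds the first fatty acid to glycerol 3-phosphate. It (ENSG00000119927) lies on chromosome 10 of GRCh38 from 112149865 to 112215377. In CPM, counts brought to a common library size by TMM scaling, it had 42.4, 39.0, 41.5 and 39.4 in ethanol replicates 1 to 4 and 34.0, 35.7, 33.0 and 35.4 CPM in O/A. The conditions did not overlap, yet the log2 fold change of -0.23 (SE 0.048, adjusted p = 5.76e-05, edgeR quasi-likelihood) stayed within the fold threshold. Absence of overlap was common in these data, since 47.6% of all genes tested showed it, and so did 8 of the 9 genes tested here. For each of these 8 an exact two-sided permutation test of 4 libraries against 4 gave p = 0.0286, the smallest it can give.

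GPAT3, an ER enzyme of the same first step, rose from 3.87 ± 0.177 FPKM to 9.998 ± 0.350 under O/A, a log2 fold change of 1.41 (SE 0.059, adjusted p = 1.42e-26, edgeR quasi-likelihood). GPAT4, the third enzyme, was at 14.0 ± 0.601 FPKM in ethanol and 11.8 ± 0.491 in O/A, within the fold threshold at -0.19. GPAT2 had no read in any library. As a share of the summed FPKM of this step, GPAM took 19.0% in ethanol and 13.7% in O/A, GPAT3 17.6% and 39.5%, and GPAT4 63.4% and 46.8%. The summed level of the step was 21.5 to 22.6 FPKM in ethanol and 24.6 to 25.6 in O/A.

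AGPAT2 adds the second fatty acid and makes phosphatidic acid, and its loss in humans causes a lipodystrophy. It (ENSG00000169692) lies on chromosome 9 from 136673143 to 136687457. It had 21.6, 18.5, 19.4 and 21.2 CPM in ethanol and 18.9, 20.6, 21.4 and 21.4 CPM in O/A, so the conditions overlapped. The log2 fold change was 0.03 (95% interval -0.10 to 0.16, adjusted p = 0.763, edgeR). AGPAT5, another enzyme of the family, fell from 11.9 ± 0.264 FPKM to 7.87 ± 0.385, a log2 fold change of -0.56. AGPAT1, the highest of the family by FPKM at 18.4 in ethanol and 18.8 in O/A, was not called, nor were AGPAT3 and AGPAT4. AGPAT2 took 23.4% of the summed FPKM of this step in ethanol and 25.4% in O/A, and AGPAT5 took 25.02% and 18.1%.

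LPIN1 and LPIN2 encode lipins, phosphatases that turn phosphatidic acid into diacylglycerol. LPIN1 (ENSG00000134324) lies on chromosome 2 from 11677595 to 11827409 and LPIN2 (ENSG00000101577) on chromosome 18 from 2885296 to 3013144. LPIN1 had 168, 174, 164 and 165 CPM in ethanol and 211, 213, 208 and 197 CPM in O/A. Every O/A library lay above every ethanol library, and the log2 fold change was 0.31 (SE 0.030, adjusted p = 8.92e-13, edgeR quasi-likelihood). LPIN2 had 12.3, 13.5, 12.7 and 13.2 CPM in ethanol and 14.6, 15.3, 15.8 and 17.1 CPM in O/A. O/A replicate 4 was the highest of these, and the log2 fold change of 0.28 (SE 0.075, adjusted p = 0.00149, edgeR) became 0.24 without it, within the fold threshold.

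The third lipin, LPIN3, fell from 15.6 ± 0.777 FPKM to 11.6 ± 0.562. Its log2 fold change was -0.38 (adjusted p = 7.10e-11, edgeR quasi-likelihood). The summed level of the 3 lipins was 31.7 ± 0.777 FPKM without and 30.9 ± 0.334 with O/A, while its makeup differed. By FPKM, LPIN3 had the largest share in every ethanol library, at 47.7 to 51.1%, and LPIN1 had it in every O/A library, at 53.0 to 57.5%. This order depends on the exonic lengths used, 11861 bases for LPIN1 and 4667 for LPIN3. In counts LPIN1 was already above LPIN3 in ethanol, at 2881 to 3514 against 1246 to 1632. Within a library LPIN1 stood at 7.80 to 8.45 times the FPKM of LPIN2 in ethanol and 7.14 to 9.03 times in O/A, ranges that overlap. PLPP1, a phosphatase of the plasma membrane that can act on the same lipid, rose with a log2 fold change of 0.40, but 29.6% of its exonic bases are shared with other genes, one of which had up to 2668 counts.

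DGAT1 and DGAT2 encode unrelated ER enzymes for the last step, from diacylglycerol to triacylglycerol. DGAT1 (ENSG00000185000) lies on chromosome 8 from 144314584 to 144326910, and had 5.76, 5.36, 5.81 and 5.68 FPKM in ethanol and 5.87, 5.80, 5.77 and 5.94 FPKM in O/A. These ranges overlapped. On the TMM-scaled CPM used for the test they did not, with at most 23.5 CPM in ethanol and at least 24.3 CPM in O/A. The difference was not called, with a log2 fold change of 0.09 (95% interval -0.02 to 0.21, adjusted p = 0.170, edgeR quasi-likelihood). As a percent change the interval ran from -1.51 to 15.6%, and its upper end was below the fold threshold. Exons of other genes, among them HSF1 with up to 1571 counts, cover 11.1% of the exonic bases of DGAT1.

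DGAT2 (ENSG00000062282) lies on chromosome 11 from 75759512 to 75801535 and was the lowest of the genes that could be tested. It had 57, 41, 48 and 54 counts in ethanol replicates 1 to 4 and 16, 24, 21 and 23 in those of O/A. After TMM scaling these were 2.30 to 3.07 CPM in ethanol and 0.920 to 1.32 CPM in O/A. Every O/A library thus lay below every ethanol library, with a log2 fold change of -1.19 (SE 0.20, 95% interval -1.60 to -0.79, adjusted p = 1.35e-06, edgeR). It was the only one of the 9 genes past an absolute log2 fold change of 1, which 5.4% of all genes tested passed. On log2(FPKM + 1), a scale that compresses genes of such low level, its log2 fold change was -0.23 and it was not called. Both enzymes together came to 5.995 ± 0.234 FPKM in ethanol and 5.99 ± 0.0806 under O/A, and DGAT1 held 94.3% and 97.6% of this sum. Within a library, DGAT1 was 14.8 to 17.9 times DGAT2 by FPKM in ethanol and 36.3 to 53.4 times in O/A.

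**Figure D2:**
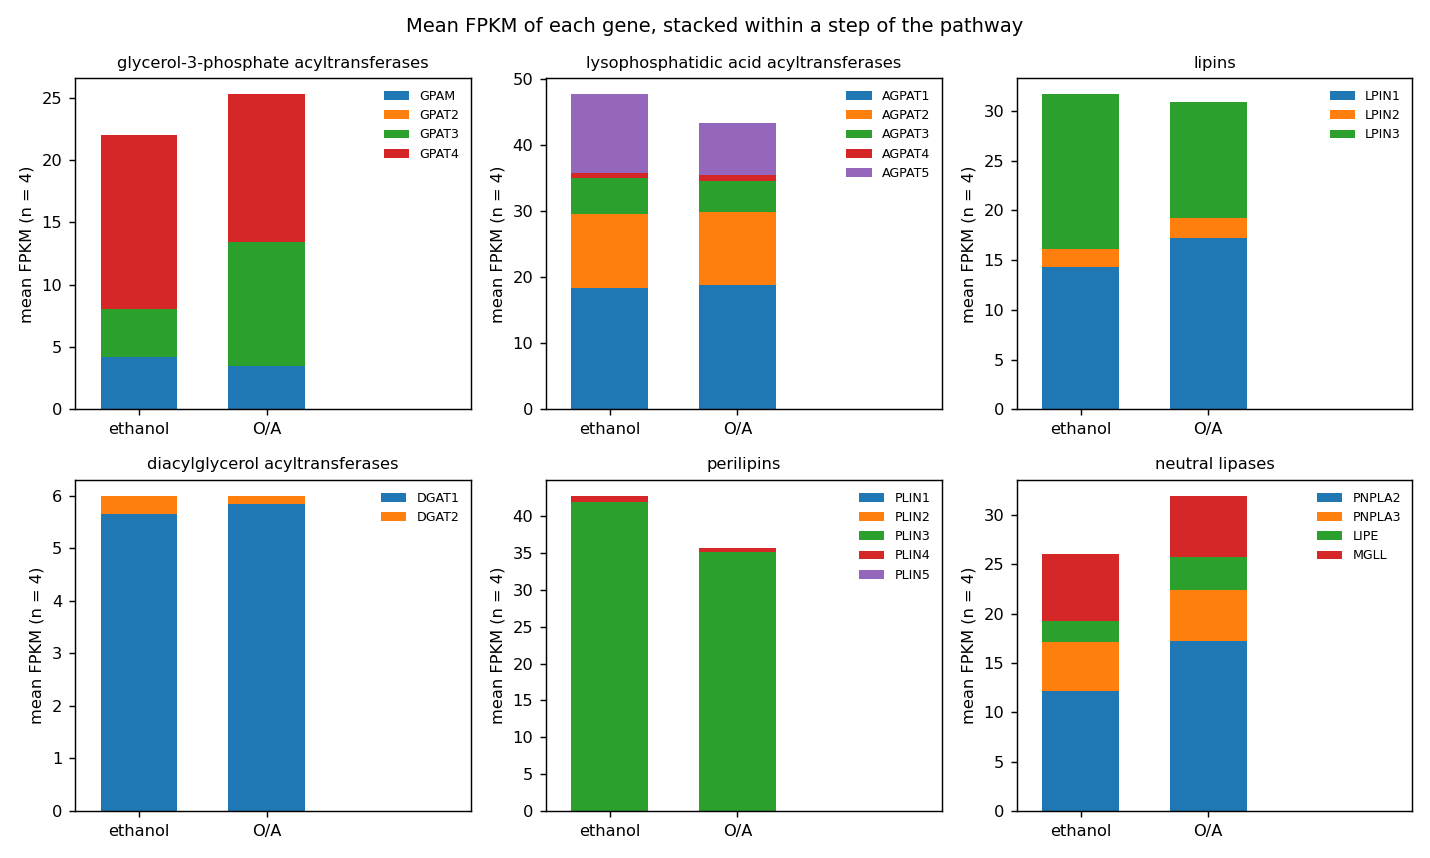
Mean FPKM (vertical axes, n = 4 libraries per condition) of each gene, stacked within 6 steps of the pathway, for ethanol and O/A. GPAT3 takes a larger part of the first step in O/A, and LPIN1 replaces LPIN3 as the lipin of highest FPKM. DGAT1 holds nearly all of the last step, and PLIN3 nearly all of the perilipins.

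Perilipins coat the droplet surface and control the access of lipases. PLIN2, the perilipin usually found on droplets outside fat tissue (ENSG00000147872), lies on chromosome 9 from 19108375 to 19149290. It had 1, 2, 1 and 3 counts in ethanol and 3, 0, 0 and 0 in O/A, too few to test. Pooled, these were 7 counts in 74162936 and 3 in 73492894, or 0.0944 CPM (exact binomial 95% interval 0.0379 to 0.194) and 0.0408 CPM (0.00842 to 0.119) without TMM scaling. The intervals overlap and cover counting error only, so no difference was detectable at this depth. By the same exact interval, an O/A library with 0 counts allows up to 0.19 to 0.21 CPM. In GENCODE v44 no exon of another gene overlaps PLIN2, and its exonic length there equals the deposited 5011 bases. The annotation release used for counting is not given. Why it had so few reads was not tested, and shares of the summed perilipin level rest on these counts.

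PLIN3, a perilipin that moves from the cytosol onto newly formed droplets, held 98.1% of the summed perilipin FPKM in ethanol and 98.2% in O/A. It (ENSG00000105355) lies on chromosome 19 from 4838341 to 4867694. It had 115, 114, 113 and 111 CPM in ethanol and 103, 96.0, 91.7 and 101 CPM in O/A. Every O/A library was lower, with a log2 fold change of -0.21 (SE 0.034, adjusted p = 6.30e-07, edgeR quasi-likelihood), within the fold threshold. On log2(FPKM + 0.1) it was -0.26 and passed. The adipocyte coat PLIN1 and the muscle coat PLIN5 were too low to test, and PLIN4 fell from 0.768 ± 0.0275 FPKM to 0.580 ± 0.0510, a log2 fold change of -0.36. Of the 10 genes listed as other coat proteins, 5 could be tested, and PLIN4 was the only one called (20%, beside 34.7% of all genes tested). The droplet proteins AUP1 (0.01) and RAB18 (0.11) had log2 fold changes within the threshold.

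PNPLA2 encodes adipose triglyceride lipase, which removes the first fatty acid from triacylglycerol. It (ENSG00000177666) lies on chromosome 11 from 818914 to 825573. It had 45.0, 46.4, 42.9 and 48.9 CPM in ethanol and 67.8, 64.2, 67.2 and 69.4 CPM in O/A. The conditions were well apart, and the log2 fold change was 0.55 (SE 0.043, adjusted p = 6.39e-16, edgeR quasi-likelihood), the largest rise among the 9 genes tested. A gene on the opposite strand, with at most 19 counts per library, covers 10.5% of the exonic bases of PNPLA2. Exons of other genes cover 18.3% of the exonic bases of PLIN3, on the opposite strand, and 13.2% of those of HILPDA, on the same strand, and these genes had at most 12 and 9 counts per library.

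HILPDA, a small droplet protein first known as a target of hypoxia-inducible factors, binds this lipase and inhibits it. It (ENSG00000135245) lies on chromosome 7 from 128455849 to 128458418. It had 6.41, 5.99, 6.40 and 4.99 FPKM in ethanol and 3.82, 3.21, 3.51 and 3.57 FPKM in O/A. Ethanol replicate 4 was the lowest of its group and still above every O/A library. The log2 fold change was -0.70 (SE 0.095, adjusted p = 9.16e-09, edgeR), and it was -0.78 without ethanol replicate 4. As a ratio of FPKM within each library, PNPLA2 to HILPDA was 1.85, 2.05, 1.79 and 2.59 in ethanol and 4.55, 5.15, 4.90 and 4.98 in O/A.

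**Figure D3:**
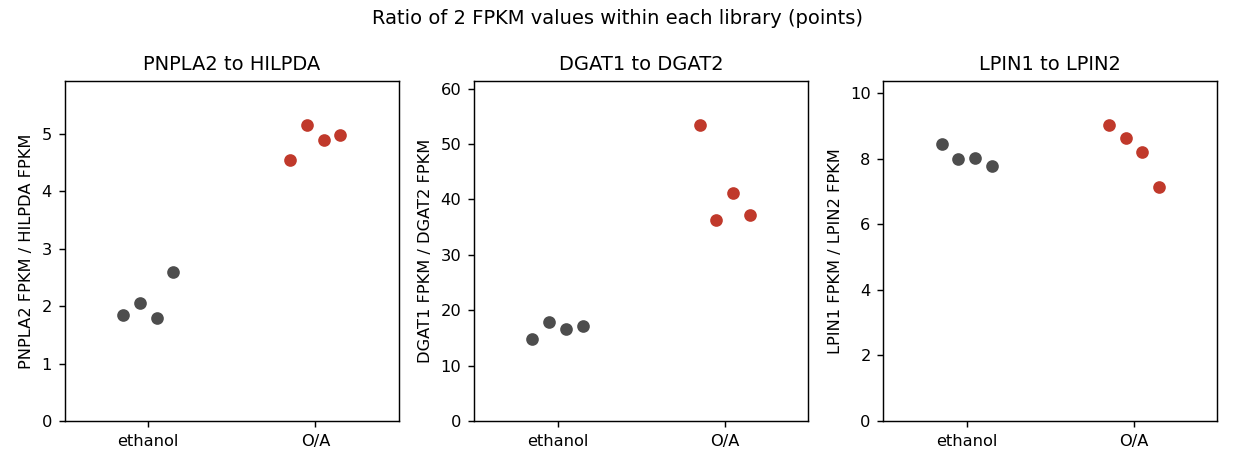
Ratio of the FPKM of 2 genes within each ethanol (grey) and O/A (red) library, for PNPLA2 to HILPDA, DGAT1 to DGAT2 and LPIN1 to LPIN2 (vertical axes from 0, no unit). The first ratio lies at 1.79 to 2.59 in ethanol and 4.55 to 5.15 in O/A, the second separates likewise, and the third overlaps between conditions.

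**Figure D4:**
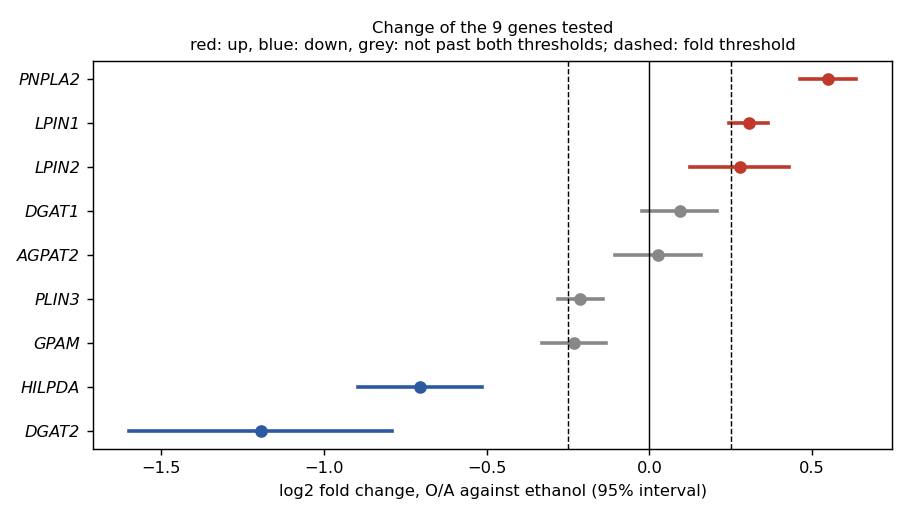
Log2 fold change of O/A against ethanol for the 9 genes tested, with 95% intervals from edgeR's quasi-likelihood fit and the fold threshold of 0.25 as dashed lines. PNPLA2 lies at 0.55, DGAT2 at -1.19 and HILPDA at -0.70, while the intervals of AGPAT2 and DGAT1 include 0.

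Other genes of droplet turnover, from lists of 63 genes that leave out the 10 above, put these values in their pathway. Of the 63, 44 could be tested, and 11 were upregulated and 5 downregulated (36.4%, beside 34.7% of all genes tested). Their median log2 fold change was 0.10, against 0.00 over all genes tested. Among the other lipases and their regulators 3 of 7 tested were upregulated and 0 downregulated (42.9%, beside the same 34.7%). ABHD5, the protein that activates adipose triglyceride lipase, rose from 4.32 to 8.69 FPKM, a log2 fold change of 1.05 (SE 0.043, adjusted p = 5.95e-27, edgeR quasi-likelihood). LIPE, hormone-sensitive lipase, which acts next on diacylglycerol, rose from 2.12 ± 0.213 FPKM to 3.30 ± 0.224, a log2 fold change of 0.69. MGLL, which releases the last fatty acid, had a log2 fold change of -0.08 and was not called. G0S2, another inhibitor of adipose triglyceride lipase, had 1 count in 1 ethanol library and was listed at 0 in the remaining 7. LIPA, the lipase of lysosomes, was not called at -0.03.

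Upstream of synthesis, 7 genes that supply the substrates were tested. Of these, 2 were upregulated and 1 downregulated (42.9%, beside 34.7% of all genes tested). GK, glycerol kinase, rose from 0.767 to 2.07 FPKM, a log2 fold change of 1.48 (adjusted p = 4.02e-16, edgeR quasi-likelihood), and its pseudogenes held 2.13% as many reads. ACSL5, an acyl-CoA synthetase, rose by 0.81 on the log2 scale from a low level of 0.205 FPKM, or 12 to 35 counts per library. Opposite-strand exons of other genes, one with up to 1192 counts, cover 8.85% of its exonic bases, so its value is uncertain. GPD1L, related to glycerol-3-phosphate dehydrogenase, fell by 0.31 on the log2 scale. The more abundant synthetases ACSL3 (0.25, just under the threshold) and ACSL4 (-0.02) were not called. Of the proteins that assemble droplets in the ER, LDAF1, the partner of seipin, rose from 6.72 ± 0.198 FPKM to 9.56 ± 0.229, a log2 fold change of 0.55, while FITM2 (0.18) and the seipin gene BSCL2 (-0.32, adjusted p = 0.109, edgeR) were not called. SOAT1, which makes the cholesterol esters of droplets, was not called at 0.08.

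Fatty acids released from droplets are burned in mitochondria, and 3 of the 9 genes tested for this fate were upregulated and 1 downregulated (44.4%, beside 34.7% of all genes tested). CPT2, an enzyme of the carnitine shuttle, fell from 2.73 to 1.33 FPKM, a log2 fold change of -0.99 (adjusted p = 8.45e-19, edgeR quasi-likelihood). ETFDH, which passes electrons from fatty acid oxidation to ubiquinone, rose by 0.74 on the log2 scale. Exons of other genes, with up to 447 and 1177 counts, cover 12.4% of the exonic bases of CPT2 and 7.98% of those of ETFDH. As the strand setting is not given, both values carry some uncertainty. CPT1B rose by 0.52, but shares 66.4% of its exonic bases with another gene on its strand, so its value is uncertain. CPT1A, the main entry enzyme, had a log2 fold change of -0.22, within the threshold.

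**Figure D5:**
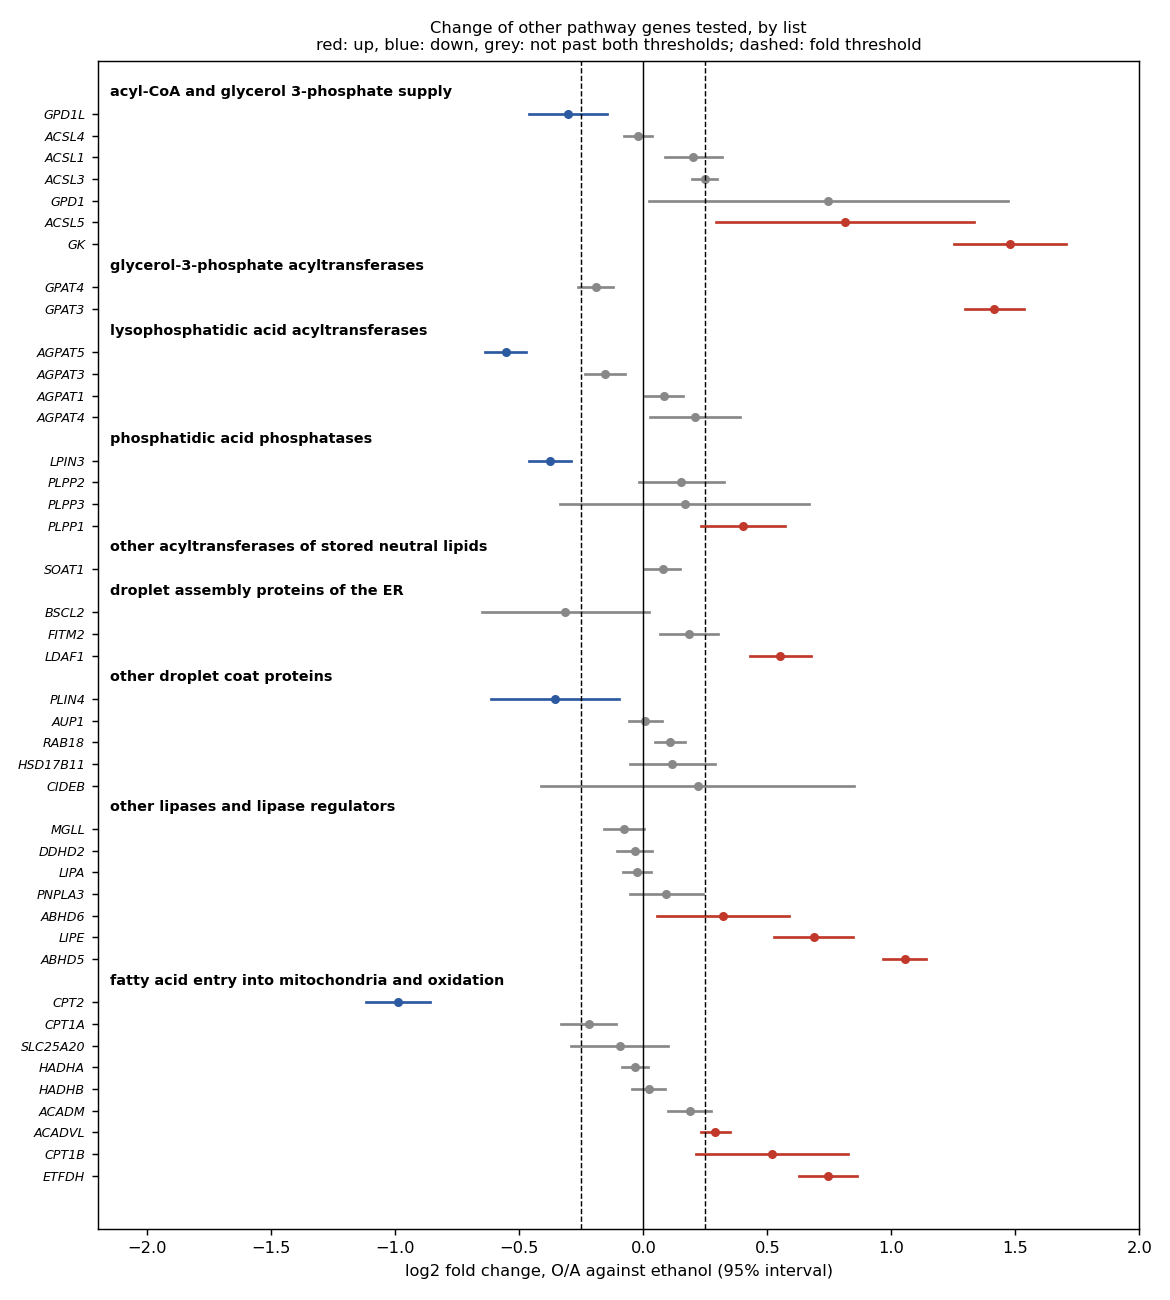
Log2 fold change of O/A against ethanol (horizontal axis) with 95% intervals for the other pathway genes tested in the lists described here, red where upregulated, blue where downregulated and grey where not past both thresholds. GK, GPAT3 and ABHD5 lie above 1, and CPT2 is the lowest at -0.99.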

How the data were processed

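Counts and FPKM values were taken from the table the authors deposited. Per the labels, paired-end reads of poly(A)-selected RNA were aligned to GRCh38.p13 with HISAT2 2.0.1 and counted per gene with HTSeq 0.6.1. The Ensembl release and the strand setting are not given in the sources used here, so reads from antisense partners may be mixed. The deposited counts are not normalized. The FPKM values deposited by the authors were within 0.005 of the count divided by exonic length and library total. A deposited table of the authors' DESeq2 comparison (fold changes and p-values) was not used.

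The 10 genes, the lists and the tests were chosen with earlier results of these data known. Named are all 10 genes, the 2 largest rises and falls called in each list, and genes outside these rules, such as MGLL, G0S2 and CPT1A, singled out after their values were seen. A further list is counted among the 63 other pathway genes but not reported here. Genes reaching 10 counts in 4 or more libraries were tested in R 4.3.3 with edgeR 4.0.16 (TMM scaling, robust quasi-likelihood test, Benjamini-Hochberg adjustment over 14893 genes, no covariate). Intervals came from the same fit. Exonic overlaps were read from GENCODE v44, whose coordinates matched for 10 of 10 genes, and promoters from RefSeq GRCh38.p14. Alternatives were DESeq2 1.42.0, median-ratio scaling, other count filters, limma 3.58.1 on FPKM, other fold thresholds, a replicate block and each library left out. The scripts were tested on simulated data.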

Additional observations from a re-analysis of the deposited data

How the results depend on the processing

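PNPLA2 and HILPDA kept their direction and call in all 15 alternatives that kept the fold threshold of 0.25. Their log2 fold changes ran from 0.47 to 0.59 and from -0.78 to -0.61. Of the 9 genes tested, 5 were called under DESeq2, median-ratio scaling and no filter, 4 with at least 50 counts, where DGAT2 was not tested, and 6 on log2(FPKM + 0.1), where GPAM (-0.27) and PLIN3 (-0.26) passed and LPIN2 (0.22) did not. On log2(FPKM + 1) 3 were called, since LPIN1 (0.24), LPIN2 (0.15) and DGAT2 (-0.23) fell within the threshold and PLIN3 (-0.25) passed it, and beyond an absolute log2 fold change of 1 only 1 was called. All genes shifted by a median of -0.0451 and -0.0421 on these scales, which lack TMM scaling, and adding 1 also compresses low genes such as DGAT2. AGPAT2 changed sign on both FPKM scales (-0.016 with 0.1 added, -0.015 with 1 added), a move no larger than that median shift, and lay between -0.0084 and 0.068 with libraries left out. The other pathway genes gave 26 calls without a fold threshold and 3 beyond 1, and all genes 7999 and 804. With each library left out, 4 or 5 of the genes, 15 to 18 other pathway genes and 4946 to 5071 genes in all were called.

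The labels give both conditions replicate numbers 1 to 4, but same-numbered libraries did not deviate together (correlations 0.044, -0.0032, -0.028 and 0.074 over 14893 genes), and only number 4 correlated best with its own. With the replicate block, 5 of the genes, 16 other pathway genes and 5160 genes in all were called, 5118 of these shared with the fit without it. Low counts limit what can be said of PLIN2, with at most 3 counts per library, and of DGAT2.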
